A study of Tachysurus ussuriensis with 12 samples.

Results

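Of 84875 assembled transcripts of the Ussuri catfish (Tachysurus ussuriensis), 202 stood lower in gill at 24 h of acute salinity stress than at 0 h while their mean kidney level hardly moved. They were chosen by their measured FPKM (fragment numbers scaled by transcript length and library total) in the same 12 libraries described here. A member had a mean FPKM of 2 or more over the 12 libraries, which 42379 transcripts reached. Its highest gill value at 24 h lay below its lowest gill value at 0 h, and its mean log2(FPKM + 1) in gill was at least 1.5 lower at 24 h. Its kidney mean on that scale moved by less than 0.5 in either direction. The gill fall and the flat kidney level are therefore what the choice required, and they are given below as a description only.

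The libraries form 4 groups of 3: gill at 0 h, gill at 24 h, kidney at 0 h and kidney at 24 h. All came from total RNA, and the labels name tissue and time but no salinity, fish number, age or sex. No group was kept for 24 h without salinity stress, so time and salinity cannot be told apart. Whether replicates were separate fish is not stated. The p-values here cover only the spread between libraries within a group, which may be technical and was pooled over the 4 groups. In freshwater fish the gill epithelium takes up ions through ionocytes set among flat pavement cells, and the kidney clears excess water as dilute urine. When the surrounding water becomes saltier, gill ionocytes are known to change their transporters and the kidney to retain water. The deposited file does not pair its transcript IDs with gene names, so no member can be given a gene or a function, the tissue labels could not be checked against marker genes, and the IDs of only 2 members are printed. Other members are called by their rank.

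Summed FPKM ran from 631998 to 714003 per library. Relative sequencing depth, recovered from the steps between low values, ran from 0.861 to 1.12 of the mean. The library of kidney 0 h replicate 2 had a median FPKM of 1.26 over all transcripts, against 1.85 to 2.22 in the other libraries. Without it the same rule gave 203 transcripts, 181 of them among the 202.

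The member with the largest fall was TRINITY_DN22648_c0_g1_i5_2. In gill it had 308.7, 57.6 and 249.6 FPKM in replicates 1, 2 and 3 of 0 h and 8.26, 0.163 and 5.01 FPKM in those of 24 h, a difference of -5.37 on the log2(FPKM + 1) scale. In kidney it had 10.6, 4.91 and 6.86 FPKM at 0 h and 12.8, 3.83 and 4.61 FPKM at 24 h. Its gill level was above every kidney library at 0 h and within or below the kidney range at 24 h, and gill 0 h replicate 2 was the lowest of the 0 h libraries. TRINITY_DN15914_c0_g1_i1_2 was the most abundant member at 0 h. Its gill values were 1674, 164.9 and 1139 FPKM at 0 h and 100.5, 147.4 and 90.3 FPKM at 24 h, a difference of -2.62. Kidney held 1.00, 0.963 and 0.494 FPKM of it at 0 h and 0.484, 0.581 and 0 FPKM at 24 h. Its kidney change was -0.44 on the log2(FPKM + 1) scale, inside the limit of 0.5. With 0.1 added in place of 1 (a pseudocount of 0.1) that change was -1.38. The gill groups did not overlap, but gill 0 h replicate 2 stood close to the 24 h libraries and far from the other 0 h libraries.

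The next members by size of fall differed in what the kidney held. The second had 52.7, 36.6 and 129.6 FPKM in gill at 0 h and 1.56, 0.622 and 1.39 FPKM at 24 h. In kidney it had 0.236, 0.175 and 0.354 FPKM at 0 h and 0.0241, 0.0953 and 0.0281 FPKM at 24 h. Its kidney groups thus did not overlap either, at values near 0. The kidney change was -0.256 on the log2(FPKM + 1) scale. The member ranked 3 had 139.8, 78.4 and 256.5 FPKM at 0 h and 4.65, 6.21 and 5.94 FPKM at 24 h, with 0.491 to 0.984 FPKM in kidney. Both were abundant in all gill libraries of 0 h and below 1 FPKM in every kidney library. By contrast the fifth had 175.1, 69.0 and 620.4 FPKM in gill at 0 h, 9.95, 12.3 and 6.50 FPKM at 24 h, and 101.9 to 258.5 FPKM in kidney. The sixth had 24.6, 18.9 and 28.7 FPKM at 0 h, 0.137, 2.22 and 0.138 FPKM at 24 h, and 12.4 to 31.4 FPKM in kidney. For these 2 the kidney held about the level that gill had at 0 h, and gill at 24 h lay below every kidney library.

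**Figure D1:**
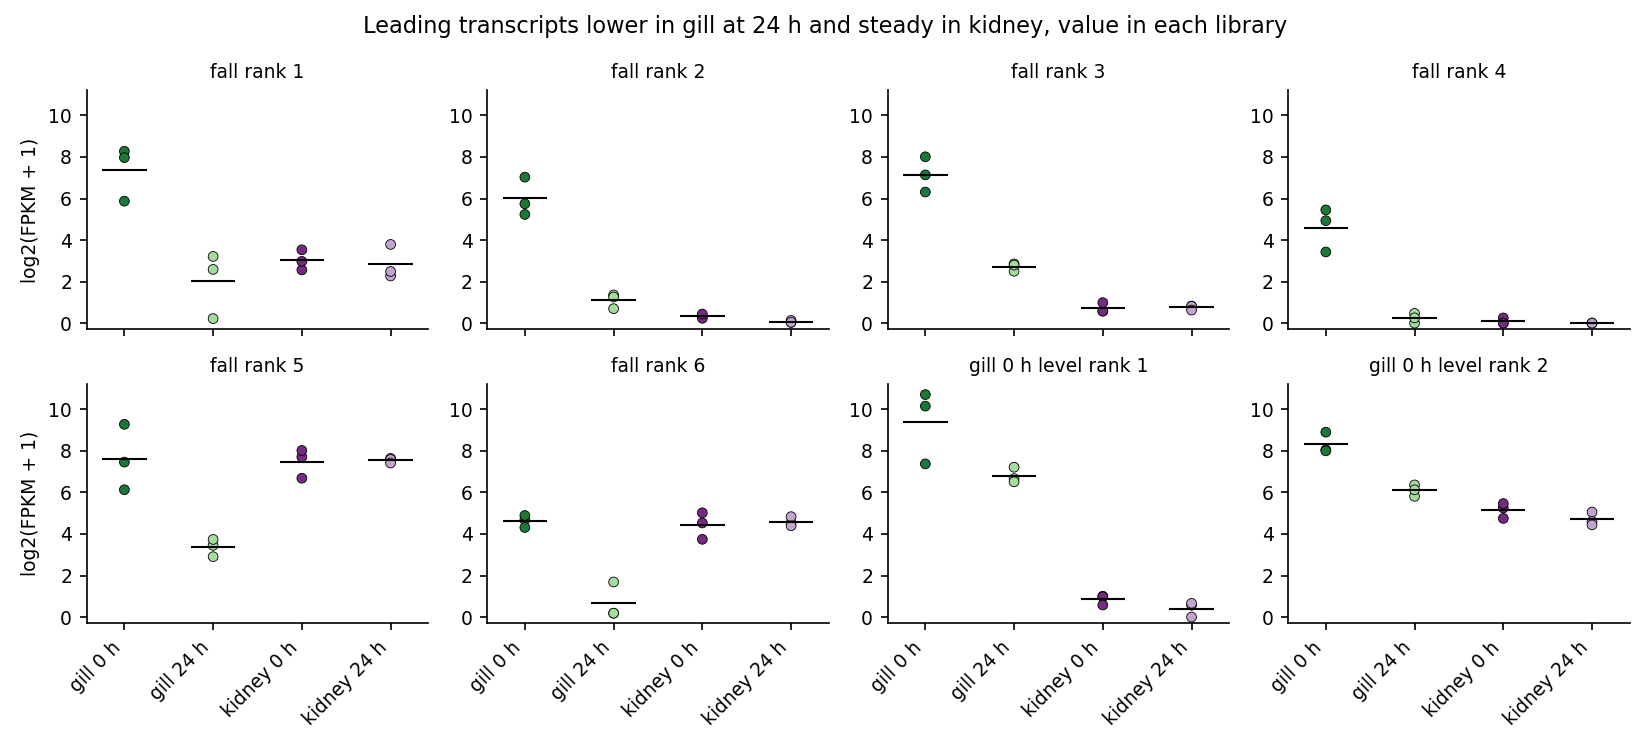
Values of 8 members in each library as log2(FPKM + 1), with the 4 groups on the horizontal axis: points are libraries and bars are group means of 3. Panels show the 6 largest gill falls and the 2 highest gill levels at 0 h; the fifth and sixth by fall keep a kidney level close to that of gill at 0 h, while those ranked 2 to 4 are below 1 FPKM in kidney.

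The other 5 of the 10 largest falls were low or listed at 0 in kidney, with at most 0.458 FPKM in any library except for the eighth, which reached 2.95 FPKM. That eighth member had 23.7, 24.8 and 29.8 FPKM in gill at 0 h, the closest set of 0 h replicates among the 10, and 0, 4.70 and 2.50 FPKM at 24 h. The ninth had 165.5, 18.8 and 127.5 FPKM at 0 h, 6.32, 12.4 and 4.53 FPKM at 24 h, and was listed at 0 in all 6 kidney libraries. The tenth had 89.8, 5.37 and 47.4 FPKM at 0 h and 4.39, 3.16 and 0.857 FPKM at 24 h. In the last 2, replicate 2 of 0 h again stood nearer to 24 h than to its own group.

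Over all 202 members the gill change ran from -5.37 to -1.503 with a median of -2.23, where the 42379 transcripts with a mean FPKM of 2 or more had a median of 0.03. A fall of 2 or more was seen in 128 members and one of 3 or more in 13. The mean gill level at 0 h had a median of 17.5 FPKM and a range of 2.99 to 993 FPKM, and 15 members reached 100 FPKM or more. At 24 h the gill mean had a median of 1.80 FPKM. A total of 20 members were below 1 FPKM in all 3 gill libraries of 24 h, and 3 of these were listed at 0 in all 3. One of the 3 had 20.3, 0.837 and 13.2 FPKM in gill at 0 h, another had 14.9, 2.10 and 8.63 FPKM, and both were also listed at 0 throughout the kidney. The last had 0.806, 4.53 and 3.62 FPKM in gill at 0 h and 2.39 to 5.03 FPKM in kidney, and it was the least abundant member at 0 h. Together the members made up 1.27%, 0.561% and 1.17% of summed FPKM in gill 0 h replicates 1, 2 and 3. In gill at 24 h they made up 0.141% to 0.163%. Replicate 2 of gill 0 h thus carried a smaller share than the other 0 h libraries. Its larger share than any gill 24 h library follows from the rule, which put each member's gill 0 h values above its 24 h values.

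Calls of the time comparison are given with their background only, since the choice of members used it. Of 199 members that passed the filter of 1 FPKM in at least 3 libraries, 87 passed limma's test for a fall in gill (Benjamini-Hochberg adjusted p under 0.05), against 0.433% of all 75716 transcripts tested. Of the 87, 57 were below 1 FPKM in every kidney library. The spread in this test was pooled over gill and kidney. Near-zero kidney values can thus make it smaller than the spread within gill. The 3 members that did not pass the filter had at most 0.108 FPKM in kidney. The test of the kidney change minus the gill change called 10 members, against 0.0343% of all tested with kidney above gill. Non-overlap of the gill groups with 24 h below 0 h, which every member has by choice, was found for 9.32% of all tested. The count of 87 was 145 without gill 0 h replicate 2, when 716 of all tested were called in place of 328. It was 24 with a pseudocount of 0.1, when 100 of all tested were called. Without any other gill library or any kidney library of 24 h it was 29 to 57, with 91 to 210 of all tested called. The count of 10 was 108 without gill 0 h replicate 2, when 404 of all tested were called in place of 26. It was 0 to 2 without any of the other gill libraries, with 0 to 2 of all tested called. Without any kidney library but kidney 0 h replicate 2 it was 0 or 1 (0 to 9 of all tested). Without that one it was 10 (39 of all tested). With a replicate block by title number the counts of 87 and 10 were 56 and 2 (177 and 3 of all tested). By library name number they were 31 and 0 (69 and 0 of all tested).

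Gill and kidney were next compared as the average of both times, a contrast that the time differences in the rule do not enter. The rule still required a gill level at 0 h from which to fall and required no kidney level, so its direction is partly set by the choice. Of the 199 members tested, 162 were higher in gill and 10 were higher in kidney by limma's test (adjusted p under 0.05), where 21.8% and 19.8% of all transcripts tested were called in these directions. The median difference over these 199 was 2.27 on the log2 scale, against -0.05 over all tested, and it was 4.73 with a pseudocount of 0.1. Without the filter 164 and 10 of the 202 were called. TRINITY_DN15914_c0_g1_i1_2 had the largest difference toward gill (7.47, SE 0.46, limma adjusted p = 9.69e-08). With at most 1.00 FPKM in any kidney library it could reach the required mean only through gill, so this call carries no information. For TRINITY_DN22648_c0_g1_i5_2 the difference was 1.75 (SE 0.55; limma adjusted p = 0.0221), and it missed the threshold in 7 of 16 alternatives (adjusted p from 0.000868 to 0.152 over these). Quantile scaling and no filter, which the 16 leave out, gave limma adjusted p = 0.0318 and 0.0232. Members below 1 FPKM in every kidney library could reach the required mean only through gill, so their calls carry no information. They made up 130 of the 162. Of the 34 at 1 FPKM or more in every kidney library, 12 were called toward gill and 10 toward kidney, with a median difference of 0.07. Of the 35 members between these classes, 20 were called toward gill and 0 toward kidney, with a median of 1.26. Their mean kidney level had a median of 1.20 FPKM, below the required mean of 2, so this split is also partly set by the choice. The counts toward gill ranged from 159 to 164 and those toward kidney from 10 to 11 over all alternatives.

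Members at the ends of this order show how unlike they were in kidney. Those ranked 2 and 3 toward gill had 88.3 to 152.3 and 93.6 to 129.3 FPKM in gill at 0 h, and 19.7 to 31.1 and 31.2 to 45.7 FPKM at 24 h. In kidney they reached 0.409 and 0.749 FPKM at most. At the other end, the member with the largest difference toward kidney (-3.64, SE 0.33; limma adjusted p = 2.76e-06) had 3.53, 0.597 and 6.43 FPKM in gill at 0 h and 0.166, 0.148 and 0.167 FPKM at 24 h. Its kidney libraries held 14.2 to 35.6 FPKM. The next toward kidney (-3.09, SE 0.37; limma adjusted p = 3.13e-05) had 36.5 to 91.7 FPKM in kidney and 6.02 to 33.3 FPKM in gill at 0 h. The third toward kidney (-2.10, SE 0.44; limma adjusted p = 0.00201) had 3.98, 2.36 and 2.96 FPKM in gill at 0 h, 0, 1.25 and 0 FPKM at 24 h and 1.44 to 15.5 FPKM in kidney, the lowest in kidney 0 h replicate 2. These 3 had a higher mean in kidney than in gill at both times.

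By their kidney level the members fell into 3 classes. In 133 of 202 (65.8%) kidney was below 1 FPKM in all 6 libraries, a level that 4.50% of the transcripts with a mean FPKM of 2 or more had. Of these 133, 63 were listed at 0 in all 6 kidney libraries, and an exact 0 may be an estimate that failed. A further 34 (16.8%) had 1 FPKM or more in all 6 kidney libraries, against 76.8% of those transcripts, and 35 lay between. A transcript near 0 in kidney at both times meets the kidney limit of the rule by that alone. These shares are therefore partly set by the choice. Without kidney 0 h replicate 2 the first class held 136. The median gill change was -2.36 in the first class, -1.88 in the class present in all kidney libraries and -1.77 in the class between. In that order, the gill mean at 0 h had medians of 18.2, 18.6 and 7.17 FPKM and lowest values of 6.39, 2.99 and 3.25 FPKM. A member low in kidney reaches the required mean through gill alone, so these changes are partly set by the choice as well. In bulk tissue, fewer cells of a type and less RNA per cell cannot be told apart, and this holds for every gill value given here.

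**Figure D2:**
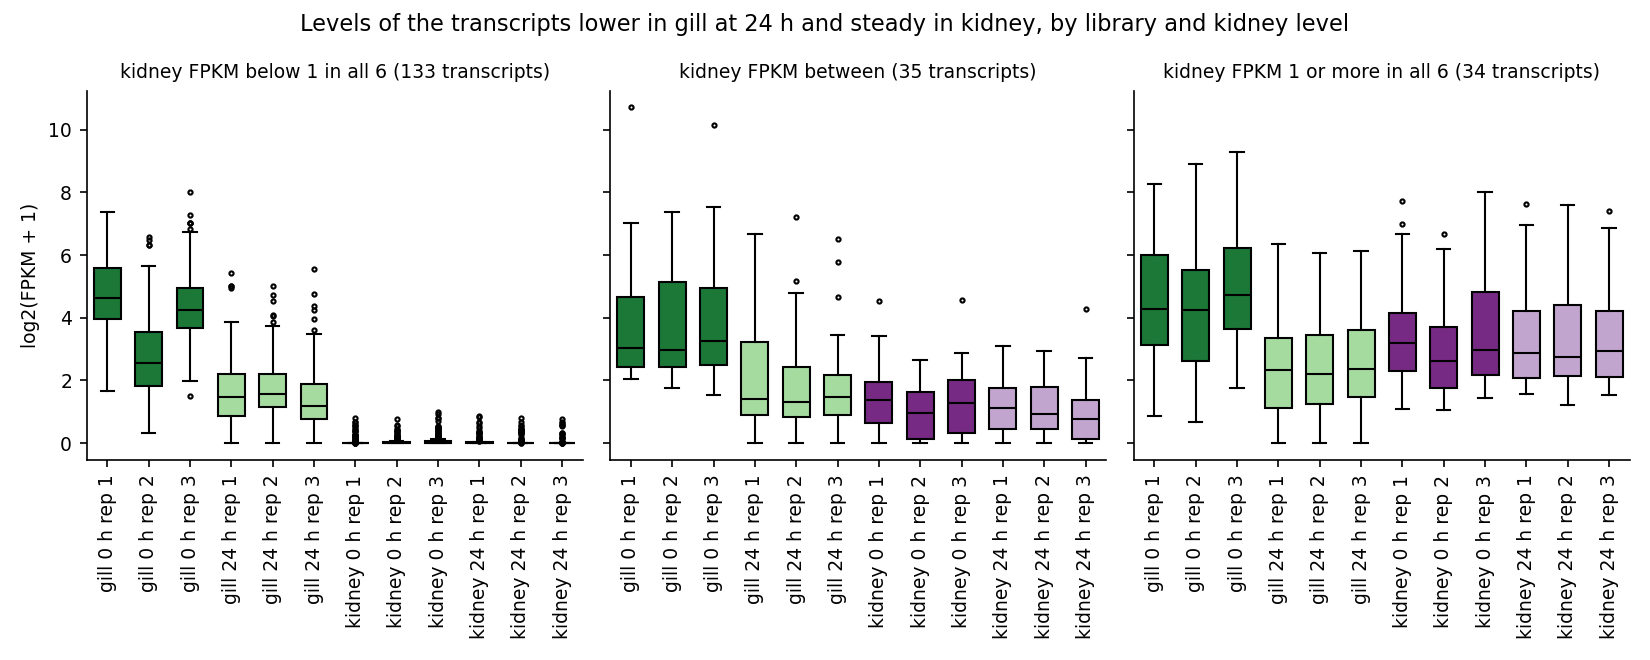
Box plots of log2(FPKM + 1) over the members in each of the 12 libraries, in 3 panels by kidney level (133, 35 and 34 transcripts); boxes span the quartiles, the line is the median, whiskers reach at most 1.5 box lengths and dots lie beyond. In the first panel gill 0 h replicate 2 lies between the other 0 h libraries and those of 24 h, while in the last panel the 0 h libraries lie closer together and gill at 24 h lies below kidney.

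For the 34 members present throughout the kidney, the median FPKM in gill was 18.4, 18.1 and 25.3 in replicates 1, 2 and 3 of 0 h and 4.18, 3.61 and 4.12 in those of 24 h. Kidney medians were 8.24, 5.16 and 6.84 FPKM at 0 h and 6.39, 5.69 and 6.73 FPKM at 24 h. The gill medians of 0 h thus all lay above the kidney medians, and those of 24 h all lay below them. Gill at 24 h was below the kidney mean in 24 of the 34 (70.6%), and in 18 it had been above that mean at 0 h. Of transcripts with a mean FPKM of 2 or more, 52.6% had gill at 24 h below the kidney mean. A required gill fall beside a steady kidney favours such a crossing, so these counts and medians are partly set by the choice. In 25 of the 34, kidney 0 h replicate 2 was the lowest of the kidney 0 h libraries, against 58.9% of transcripts with a mean FPKM of 2 or more.

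The class low in kidney was less even across the gill libraries of 0 h. Its median FPKM was 23.7, 4.83 and 17.8 in replicates 1, 2 and 3 of 0 h and 1.80, 1.98 and 1.28 in those of 24 h. Per member, replicate 1 was a median of 6.20 times replicate 2 in this class and replicate 3 was 4.32 times replicate 2. Replicate 2 was also the lower in the class present throughout the kidney, by less, with median ratios of 1.56 and 1.77. In the class between, these ratios were 1.00 and 0.97. Over transcripts with a mean FPKM of 2 or more they were 0.97 and 0.94. Over all members, replicate 2 was the lowest gill library of 0 h in 153 of 202 (75.7%), against 28.8% of transcripts with a mean FPKM of 2 or more. In 82 members (40.6%) replicates 1 and 3 were both at least 3 times replicate 2, against 3.09% of those transcripts. Of these 82 members, 78 were below 1 FPKM in all kidney libraries, compared with 55 of the other 120. The ratio limit of 3 was set after the values had been seen.

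**Figure D3:**
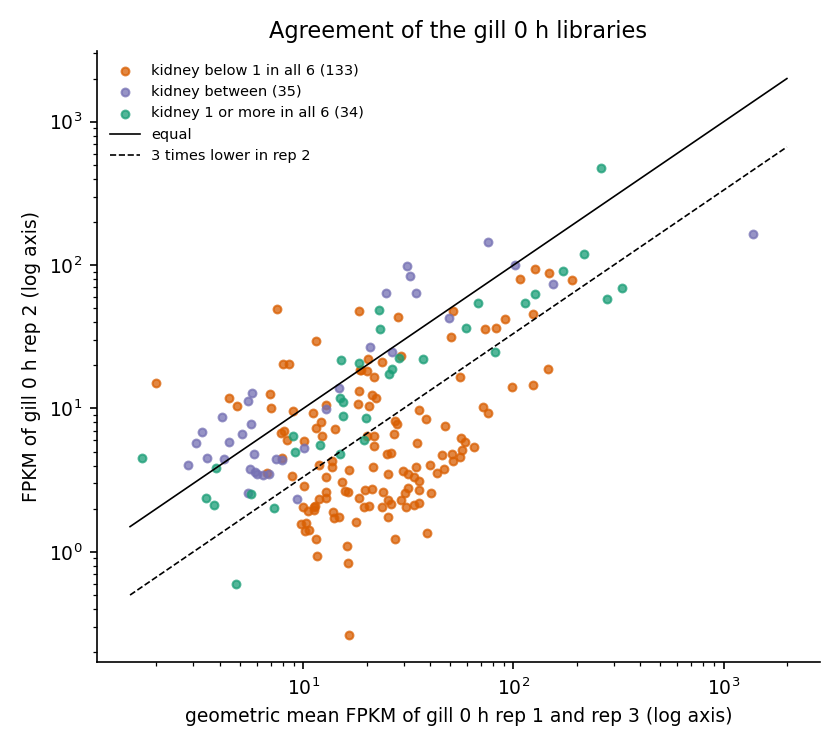
FPKM of the 202 members in gill 0 h replicate 2 (vertical, log axis) against the geometric mean of replicates 1 and 3 (horizontal, log axis), coloured by kidney level, with lines at equality and at a 3-fold lower replicate 2. Most of the points well below the dashed line belong to the class with kidney below 1 FPKM in all 6 libraries.

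In these 82 members the median FPKM was 32.5, 2.67 and 19.7 in replicates 1, 2 and 3 of gill 0 h. Replicate 1 was a median of 10.5 times replicate 2 (quartiles 7.55 and 16.0), and replicate 3 was 6.68 times replicate 2 (quartiles 4.83 and 8.55). Between replicates 1 and 3, a ratio that did not define them, the median was 1.66 with quartiles of 1.46 and 1.87, and replicate 1 was the higher in 75 of 82. Among the other 120 members the same ratio had a median of 0.83 with quartiles of 0.61 and 1.37, and replicate 1 was higher in 45. Over transcripts with a mean FPKM of 2 or more, replicate 1 was the highest gill 0 h library in 30.9% and replicate 3 in 28.2%. The ratio itself was not taken over those transcripts. At 24 h the medians of the 82 were 1.38, 1.80 and 0.999 FPKM in replicates 1, 2 and 3. Replicate 2 was the highest gill 24 h library in 52 of them (63.4%) and in 35 of the other 120 (29.2%). Of transcripts with a mean FPKM of 2 or more, 39.8% had it highest. The low place of replicate 2 within its group is how the 82 were picked and is no finding. Relative depth was 1.01, 1.10 and 0.903 in gill 0 h replicates 1, 2 and 3, and the median FPKM over all transcripts was 2.00, 2.01 and 1.85. Whether any difference between these libraries, such as depth or the mix of cells in the sample, bears on the low values was not tested.

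The next values follow in part from that split and are a description. Set against each gill 0 h library alone, the fall of these 82 members had a median of -3.81 for replicate 1, -3.09 for replicate 3 and -0.66 for replicate 2. Of the 82, 4 were 1.5 or more lower at 24 h than replicate 2 alone. Among the other 120 members the medians were -1.93, -2.17 and -1.78, and 77 were 1.5 or more lower than replicate 2. Against every one of the 3 libraries alone, 53 of the 202 were 1.5 or more lower at 24 h, 12 of them among the 34 present throughout the kidney.

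**Figure D4:**
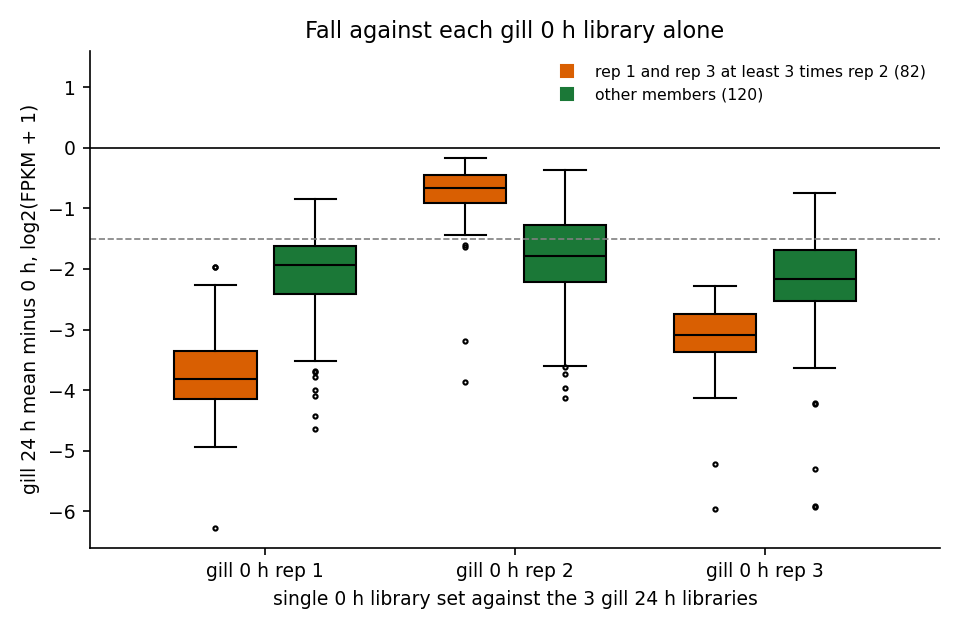
Gill 24 h mean minus a single gill 0 h library, in log2(FPKM + 1), for the 82 members with replicates 1 and 3 at least 3 times replicate 2 and for the other 120; boxes span the quartiles, the line is the median and the dashed line marks -1.5. Against replicate 2 the 82 members have a median of -0.66, and the other 120 have -1.78, a gap that the split itself brings.

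Close replicates were few among the members. In 19 members (9.41%) the highest gill 0 h library was within 1.5 times the lowest, against 52.5% of transcripts with a mean FPKM of 2 or more. In 17 members (8.42%) replicate 2 was instead at least 1.5 times both others, near the 8.41% of those transcripts, and among the 17 was the second most abundant at 0 h, with 264.1, 477.2 and 255.4 FPKM. That member had 81.2, 55.2 and 68.9 FPKM in gill at 24 h and 20.7 to 43.1 FPKM in kidney. The fifth most abundant had 209.5, 120.3 and 222.5 FPKM in gill at 0 h, 48.9, 66.5 and 66.7 FPKM at 24 h and 65.9 to 141.9 FPKM in kidney, and was not called between the tissues (0.07, SE 0.18; limma adjusted p = 0.8).

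Transcript IDs have the form written by the assembler Trinity and close with 1, 2, 3 or 4, and no source used here explains that number. Of the members, 139 (68.8%) ended in 2, 38 in 4, 17 in 1 and 8 in 3, whereas 22.9% of transcripts with a mean FPKM of 2 or more ended in 2. Among the 82 with the low replicate 2, 77 ended in 2, as did 62 of the other 120. Over all transcripts that end in 2 and reach a mean FPKM of 2, gill 0 h replicate 1 was the library of the highest value most often (14.3%). There each gill library led in 7.0% to 14.3% and each kidney library in 4.4% to 9.9%. For endings 1, 3 and 4 each gill library led in 3.4% to 10.1%, 2.7% to 3.9% and 5.3% to 12.7%. The ending thus varied with tissue beyond the members. Most members were higher in gill (182 of 202). So were 61 of the 78 transcripts of the mirrored rule described below, and 19 of those 78 ended in 2. The part of the ending in the result was not tested. The ID apart from the number did not tie transcripts together, since over 5905 pairs with the same gene part under different numbers the gill minus kidney differences correlated at r = -0.04, as a description across transcripts. Within an ending, 9 members shared the opening part of the ID (TRINITY_DN and digits) with another member, in 4 sets. None of them shared the gene part, and whether members of a set are pieces of 1 gene was not tested.

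**Figure D5:**
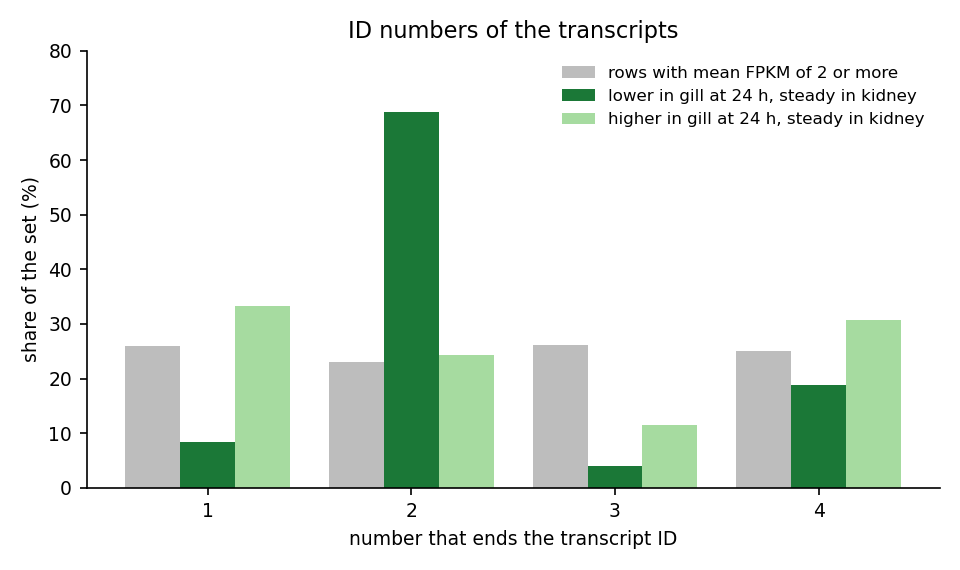
Share in percent of each set whose ID ends in 1, 2, 3 or 4: transcripts with a mean FPKM of 2 or more, the 202 members, and the 78 transcripts that met the mirrored rule of a gill rise. Members ending in 2 make up 68.8%, against 22.9% of the first set and 24.4% of the last.

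The mirrored rule, with gill higher at 24 h and kidney steady, gave 78 transcripts from the same libraries. Of these, 30 (38.5%) were below 1 FPKM in all kidney libraries, 7 (8.97%) had the low gill 0 h replicate 2, and 61 (78.2%) were higher in gill than in kidney on average. Over transcripts with a mean FPKM of 2 or more, these shares were 4.50%, 3.09% and 45.9%. Of the 202 members, 182 (90.1%) were higher in gill on average, a direction partly set by the choice. Differences between these shares were not tested. Lower in kidney at 24 h and steady in gill were 49 transcripts, and 196 were higher in kidney and steady in gill.

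The limits of the rule had members close by on either side. The 2 members nearest the gill limit changed by -1.503 and -1.504, and the nearest transcripts that met all else changed by -1.492 and -1.485. In kidney the nearest inside moved by 0.497 and -0.495 and the nearest outside by -0.514 and 0.520. The lowest means inside were 2.001 and 2.002 FPKM and the highest outside were 1.996 and 1.979 FPKM. All limits but the kidney one were met by 155 more transcripts, of which 135 were lower in kidney at 24 h and 20 were higher. All but the mean level were met by 242 and all but the separation of the gill groups by 166.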

How the data were processed

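RNA from 12 libraries (4 groups of 3) was analysed from 1 table. The authors deposited FPKM values for each transcript and library, per the file headers, and Trimmomatic, a read trimmer, is named without a version in the submitters' processing notes. For assembly settings, aligner, counting program and strand handling, nothing is given in the sources used here. FPKM is scaled for length and library total, so read totals are unknown and no count model was used. The members and all lists were chosen with earlier results of these data known.

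Libraries were grouped by tissue and time in the titles. Limma 3.58.1 in R 4.3.3 (4 group means, mean-variance trend) was fitted on log2(FPKM + 1), which understates changes of low transcripts, for 75716 transcripts at 1 FPKM or more in at least 3 libraries. P-values were two-sided and Benjamini-Hochberg adjusted over all of them, with a threshold of 0.05. Only the gill against kidney contrast was run on simulated data, with normal noise of 1 spread per transcript in all libraries. The time contrasts were not checked. The uneven gill 0 h libraries and kidney zeros of the members were not simulated. IDs were printed for the largest gill fall and the highest gill level at 0 h; ranks cover the 10 largest falls, the 5 most abundant at 0 h and the 3 largest tissue differences each way. Gene and marker lists could not be matched to the IDs and gave no result.

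Libraries of different groups with the same title number had deviations from their group means that correlated at -0.0493 to 0.137. At all 3 numbers the correlation was above 0.1 only between gill and kidney at 24 h. Libraries of unlike number were not correlated for comparison, so whether the numbers pair fish cannot be told from these values. The main fit did not take the numbers as pairs. By library name, replicate 3 of kidney 24 h had another number than replicate 3 of the other groups. Alternatives were a pseudocount of 0.1, median-ratio and quantile scaling, no filter, other rule limits, a block by number and leaving out each library.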

Additional observations from a re-analysis of the deposited data

Results flagged for a closer look

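The test of the kidney change minus the gill change over 24 h called 10 of the 199 members tested (limma adjusted p under 0.05). Of all 75716 transcripts tested, 0.0343% were called with kidney above gill. In all 10 gill was lower relative to kidney at 24 h, a direction that the rule fixed. The rule chose the members on both changes, so the count of 10 lends them no support. Of the 10, 8 were below 1 FPKM in all kidney libraries, 2 were present in all of them, and 1 had replicates 1 and 3 of gill 0 h at least 3 times replicate 2.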

How the results depend on the processing

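Over all alternatives the counts of members higher in gill (159 to 164) and higher in kidney (10 to 11) stayed within 1.5 times the main values. Of the 162 toward gill in the main fit, 130 were members below 1 FPKM in every kidney library, whose calls carry no information. With a pseudocount of 0.1 the median gill minus kidney difference was 4.73 and the median gill change -2.79. There 24 members were called falling in gill, where 100 of all 75716 tested were. In the difference between the tissues' changes 0 members were called, against 1 of all tested (150 members at unadjusted limma p under 0.05). With a replicate block by title number 56 and 2 members were called (177 and 3 of all tested in the same direction). By library name number 31 and 0 were called (69 and 0 of all tested), with 172 unadjusted. The rule used these contrasts, so the unadjusted counts lend the members no support. Leaving out single libraries gave 29 to 145 calls in gill and 0 to 108 in the difference. The highest came without gill 0 h replicate 2 in both, when 716 and 404 of all tested were called. The rule itself gave 444 transcripts with no minimum mean, 108 with a mean FPKM of 5 or more and 128 with a gill fall of 2 or more. Without single libraries it gave 193 to 419, with 419 (179 of the members) without gill 0 h replicate 2 and 319 (186) without gill 24 h replicate 2. Fewer members were shared without gill 0 h replicate 1 (144 of 193), without gill 0 h replicate 3 (149 of 196) and with a pseudocount of 0.1 (147 of 255). The cause was not tested. The class low in kidney and the members with a low gill 0 h replicate 2 stayed within 1.5 times under alternatives chosen after the values were seen. Both named transcripts kept the direction of their tissue difference in the 16 alternatives counted for them, and also with quantile scaling and with no filter. For TRINITY_DN15914_c0_g1_i1_2 the choice of members set that direction. Depth is known only relative between libraries, so the precision of single low FPKM values is unknown.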

Other observations

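The profile with gill 0 h replicates 1 and 3 at least 3 times replicate 2 reached beyond the members. Of 1906 transcripts with a mean FPKM of 2 or more and below 1 FPKM in all kidney libraries, 248 had it, and 232 of these had an ID that ends in 2. Only 78 of the 248 were members. Of the other 170, 169 had gill groups that overlapped because the highest gill 24 h library was at or above replicate 2 of 0 h, and 146 had a gill change of -1.5 or less. Their median FPKM was 34.2, 1.80 and 18.8 in replicates 1, 2 and 3 of gill 0 h and 1.81, 2.95 and 1.08 in those of 24 h. The low replicate 2 and its overlap with 24 h are how these 170 were picked. The 1658 transcripts low in kidney without the profile had medians of 7.35, 7.67 and 6.42 FPKM at 0 h and 7.09, 6.71 and 7.05 FPKM at 24 h.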
